A study of Mus musculus with 8 samples.

Results

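The nicotinic acetylcholine receptor of skeletal muscle and the proteins that gather it at the nerve contact were examined as 10 genes across adult life in the mouse. They were chosen by symbol: the receptor subunit genes Chrna1, Chrnb1, Chrnd, Chrne and Chrng, the genes Musk, Dok7, Lrp4 and Rapsn, which build and anchor receptor clusters, and Colq, which encodes the tail of acetylcholinesterase. All 10 of 10 were found among the 49315 genes with counts, and all 10 were among the 19571 genes that passed the filter on low counts and were tested. Gastrocnemius, the large calf muscle, came from C57BL/6 mice of 3, 12, 24 or 30 months, for which the labels give no treatment or altered allele. Each age has 2 RNA-seq libraries, 8 in all, made from total RNA of frozen whole muscle. Nothing in the labels says whether the 2 libraries of an age stem from different mice, so the p-values rest on differences among libraries that may be technical only. The design asks how transcripts of this muscle differ between young adult and old mice.

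As background, the adult muscle receptor is a ring of α, β, δ and ε subunits that opens when acetylcholine from the motor nerve binds, and in fetal muscle a γ subunit takes the place of ε. The nerve releases agrin, which binds LRP4 on the fibre. LRP4 then activates the receptor kinase MuSK with the help of the adaptor Dok-7, and rapsyn ties the receptors into a dense cluster under the nerve ending. In innervated adult fibres these genes are transcribed mainly by the nuclei beneath the junction, and it is well known that several of them, those of the α, δ and γ subunits among them, are transcribed along the whole fibre when the nerve is lost.

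Library totals ranged from 42404254 to 59245029 counts. A gene with no count in a library could have had up to 0.0506 to 0.0707 CPM (counts scaled to library size). This limit used the library totals without TMM factors and covers counting error only. The CPM values of genes and sums below are scaled by TMM. The 10 marker genes of skeletal muscle fibres summed to 252000 to 419000 CPM in each library. The libraries fell into sets that the labels do not explain. In 3 libraries, 1 each of 12 months (replicate 2), 24 months (replicate 2) and 30 months (replicate 1), a sum over 9 kidney genes was 0.662 to 0.722 CPM. In the other 5 libraries, which include both of 3 months, the same sum was 3.70 to 51.0 CPM. Each result below was therefore fitted with the ages alone and again with the set as a further term, called the set-adjusted fit here. Because 3 months has no library in the set without kidney transcripts, age and set cannot be fully told apart in comparisons with 3 months. In whole muscle, fewer junctions or cells of a type and less RNA in each cannot be told apart.

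Promoter sequence is given first for the genes whose values differ most in pattern: Chrna1 and Chrng, which were highest in 1 library of 30 months, Chrne, which did not differ detectably with age, and Musk, which followed the library sets. RefSeq promoters on GRCm38.p6 were matched for 6 of the 10 genes, these 4 with Chrnb1 and Dok7, and the 250 bases before each start site were searched on both strands for CANNTG, the E-box bound by myogenic factors such as MyoD and myogenin, and for CCGGAA, the N-box core bound by Ets factors. Each line reads 5′ to 3′ on the gene's own strand, and capitals mark the matches. The windows are chr2:73580339-73580588 on the minus strand for Chrna1, chr1:87205561-87205810 on the plus strand for Chrng, chr11:70619195-70619444 on the minus strand for Chrne and chr4:58285712-58285961 on the plus strand for Musk. Start sites are those of RefSeq, and the Chrng window lies inside the gene as counted, which starts at 87204657. The Chrne window holds 22 annotated exon bases of its gene.
Chrna1: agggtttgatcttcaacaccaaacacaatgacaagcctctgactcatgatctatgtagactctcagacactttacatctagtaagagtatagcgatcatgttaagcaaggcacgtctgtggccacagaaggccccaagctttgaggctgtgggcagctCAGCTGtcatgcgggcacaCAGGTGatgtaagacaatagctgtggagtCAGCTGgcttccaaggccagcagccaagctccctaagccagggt
Chrng: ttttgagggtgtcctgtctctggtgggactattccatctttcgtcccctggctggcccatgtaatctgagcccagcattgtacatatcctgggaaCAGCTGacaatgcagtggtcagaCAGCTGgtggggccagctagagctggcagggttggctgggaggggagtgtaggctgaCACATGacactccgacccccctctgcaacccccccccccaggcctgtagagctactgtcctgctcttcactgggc
Chrne: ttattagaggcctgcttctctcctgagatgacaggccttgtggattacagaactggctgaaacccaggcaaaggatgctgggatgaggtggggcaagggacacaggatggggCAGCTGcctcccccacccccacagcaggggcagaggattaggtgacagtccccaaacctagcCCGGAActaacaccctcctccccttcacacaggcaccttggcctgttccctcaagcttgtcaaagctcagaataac
Musk: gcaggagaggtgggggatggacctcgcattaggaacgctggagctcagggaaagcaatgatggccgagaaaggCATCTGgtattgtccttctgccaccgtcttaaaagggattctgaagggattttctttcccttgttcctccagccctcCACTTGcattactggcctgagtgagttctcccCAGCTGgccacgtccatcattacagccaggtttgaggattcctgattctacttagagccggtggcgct
Counted back from the start site, Chrna1 held E-boxes at -92, -73 and -44, and the outer 2 had the letters CAGCTG. Chrng held E-boxes at -155, -132 and -75, and the first 2 of these had the same letters. Chrne held 1 such E-box at -138 and the N-box core at -76, and of the 6 genes it alone had that core in the window. Musk held E-boxes at -177, -100 and -68, the last with the same letters. Chrnb1 also held 3 E-boxes. Dok7 had 2 matched promoters, 1 with a single E-box and 1 with 0, where 167 of the 250 bases were annotated exon. Among 32851 promoters of the same length, 66.2% held at least 1 E-box, 12.2% held 3 or more, 13% held the CAGCTG form, 1.26% held that form 2 or more times and 12% held the N-box core. The CAGCTG form is also counted as an E-box. A match in a window is a description and not a binding site.

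Per unit of gene length, the 10 genes spanned a wide range of levels. TPM (counts divided by the gene lengths in the files and scaled to the same sum in every library) averaged 41.2 for Musk over the 8 libraries, 28.2 for Rapsn, 18.0 for Chrnb1, 14.5 for Chrne, 10.1 for Dok7, 6.80 for Lrp4, 6.72 for Chrna1, 2.54 for Colq, 1.35 for Chrnd and 0.185 for Chrng. Neighbours in this order differed in the same direction in 8 of 8 libraries, except that Chrnb1 exceeded Chrne in 6, Chrne exceeded Dok7 in 7 and Lrp4 exceeded Chrna1 in 6. With the length of the longest annotated transcript in place of the deposited length, the level relative to Chrna1 moved from 0.63 to 1.26 on the log2 scale for Dok7, from 0.06 to 0.47 for Lrp4 and from -1.35 to -0.94 for Colq. Chrne stood at 1.16 with the deposited length and 1.22 with the longest transcript, so its order with Dok7 turned round. The receptor's own subunit genes thus stood at unlike levels in the same muscle, with the ε gene above the γ gene in every library.

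**Figure D1:**
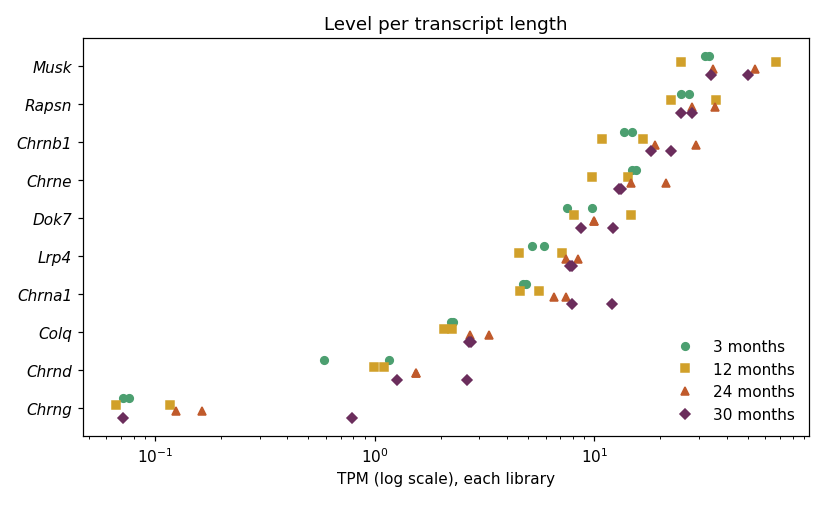
Level of each gene in TPM (horizontal log axis) in each of the 8 libraries, with symbols by age and genes ordered by mean level. Musk spans 24.9 to 66.8 TPM and Chrng 0.0665 to 0.788 TPM, and the highest Chrng point is a library of 30 months.

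Across the ages, 9 of the 10 genes had a higher fitted level at 30 than at 3 months, with Chrne as the exception, and their median log2 fold change was 0.51, against 0.01 over all genes tested. edgeR's quasi-likelihood test, adjusted over all 19571 genes, called 0 of the 10 at an adjusted p below 0.05, where 0.148% of all genes were called (29). At an unadjusted p below 0.05, 5 of the 10 passed, all higher at 30 months, where 8.52% of all genes passed and 5.18% in that direction. In the set-adjusted fit, edgeR called 2 of the 10, Chrna1 and Chrnd, where 2.13% of all genes were called. DESeq2 called 1, Chrna1, among 213 of all genes, and limma-voom called 0 of the 10. Libraries of 30 months lay above those of 3 months without overlap for 6 of the 10, a pattern shown by 21.1% of all genes tested, and none lay below.

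**Figure D2:**
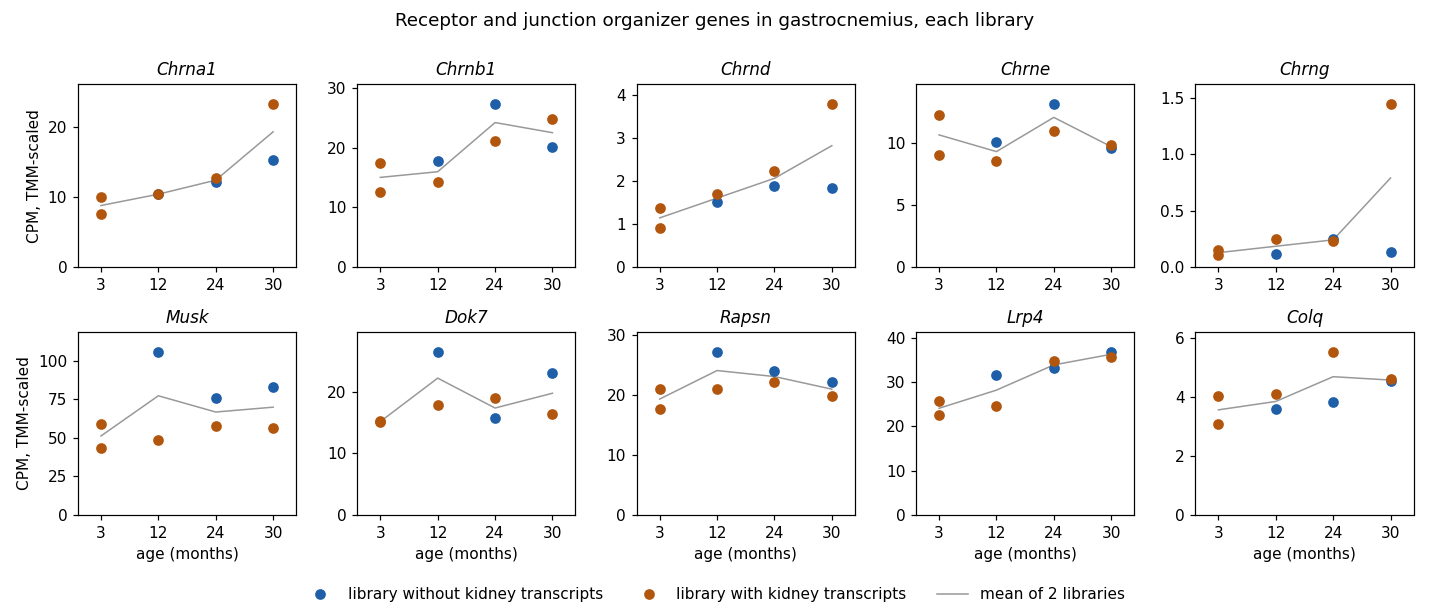
CPM scaled by TMM of each gene (vertical axes from 0) against age in months, 1 point per library, blue for libraries without and orange for libraries with kidney transcripts, with a line through the mean of the 2 libraries of each age. Chrna1 climbs to 15.3 and 23.3 CPM at 30 months, Chrne stays between 8.57 and 13.2 CPM, and Chrng is below 0.3 CPM except in 1 library of 30 months at 1.45 CPM.

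Chrna1 encodes the α subunit, which carries the acetylcholine binding site and occurs in both the fetal and the adult receptor (chromosome 2, 73563215 to 73580338, minus strand, GRCm38). It had 7.58 and 9.99 CPM in the libraries of 3 months, 10.4 and 10.4 CPM in those of 12 months, 12.7 and 12.1 CPM in those of 24 months, and 15.3 and 23.3 CPM in those of 30 months. In CPM the ages did not overlap and each stood above the one before it, while in TPM replicate 1 of 12 months, at 4.59, was below both libraries of 3 months, at 4.75 and 4.87. Its mean was 19.3 ± 5.61 CPM at 30 months against 8.79 ± 1.70 CPM at 3 months (SD, n = 2 each), a log2 fold change of 1.13 (SE 0.22, 95% interval 0.65 to 1.62). The edgeR adjusted p was 0.128 with the ages alone and 0.00946 in the set-adjusted fit, where the log2 fold change was 1.23 (SE 0.19). Chrna1 was thus called higher at 30 months in the set-adjusted fit, and also by DESeq2 (adjusted p = 0.00185) and with no low count filter (9.62e-06). The latter 2 are fits of the same 8 libraries with the same log2 fold change of 1.13. They called 213 of 19571 and 378 of 33615 genes. The call of the set-adjusted fit ended when replicate 1 of 3 months was left out (adjusted p = 0.0645) or replicate 2 of 30 months (log2 fold change 0.84, adjusted p = 0.266). With the ages alone, the log2 fold change was 0.80 when replicate 2 of 30 months was left out, and when replicate 1 of 30 months was left out it was 1.4 and passed (adjusted p = 0.0255). Within the set with kidney transcripts, the library of 30 months exceeded the mean of the libraries of 3 months by 1.41 in log2 CPM and the library of 12 months by 1.15. Within the set without them, the library of 30 months exceeded that of 12 months by 0.56.

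Chrnd encodes the δ subunit, which is also part of both receptor forms (chromosome 1, 87190607 to 87200070, plus strand). It stood at 1.38 and 0.909 CPM in the libraries of 3 months, 1.69 and 1.52 CPM in those of 12 months, 2.24 and 1.89 CPM in those of 24 months, and 1.85 and 3.8 CPM in those of 30 months, from 49 to 202 counts per library. Both libraries of 30 months were above both of 3 months, and replicate 2 of 30 months was above every other library. The log2 fold change of 30 against 3 months was 1.31 (SE 0.36, edgeR adjusted p = 0.298) with the ages alone and 1.5 (SE 0.30, adjusted p = 0.0286) with the library set. The second value passed the threshold and stopped passing without replicate 1 of 3 months (adjusted p = 0.054), replicate 2 of 3 months (0.199) or replicate 2 of 30 months (0.629), where the log2 fold change was 0.90.

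Chrng encodes the fetal γ subunit and lies 4586 bases beyond Chrnd on the same strand (chromosome 1, 87204657 to 87212694). Its counts were 5 and 8 in the libraries of 3 months, 13 and 6 in those of 12 months, 12 and 13 in those of 24 months, and 6 and 77 in those of 30 months. In CPM the last library stood at 1.45, with an exact Poisson 95% interval of 1.14 to 1.81 that covers counting error only, and the other 7 libraries stood at 0.108 to 0.253. The high level thus belonged to 1 library, and the other library of 30 months, at 0.132 CPM, lay within the range of 3 months. The log2 fold change of 30 against 3 months over all libraries was 2.61 (SE 0.95, edgeR adjusted p = 0.488) with the ages alone. It was 3 (SE 0.71, adjusted p = 0.0668) in the set-adjusted fit. With the ages alone it was 0.03 without replicate 2 of 30 months, and a fold change at counts this low depends on the prior count. Without replicate 1 of 30 months, so that the high library stood alone for its age, it was 3.46 and passed (adjusted p = 0.0252).

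Chrne encodes the adult ε subunit (chromosome 11, 70614883 to 70619216, minus strand). It had 9.07 and 12.3 CPM in the libraries of 3 months, 8.57 and 10.1 CPM in those of 12 months, 11 and 13.2 CPM in those of 24 months, and 9.64 and 9.83 CPM in those of 30 months. Both libraries of 30 months lay between those of 3 months. The mean was 9.74 ± 0.132 CPM at 30 months against 10.7 ± 2.25 CPM at 3 months (SD, n = 2 each), a log2 fold change of -0.13 with a 95% interval of -0.56 to 0.30 (SE 0.19, edgeR adjusted p = 0.908). A change as large as that fitted for Chrna1, 1.13, was outside that interval, which held smaller changes in both directions. The set-adjusted fit gave Chrne a log2 fold change of -0.21 (SE 0.18, edgeR adjusted p = 0.658). The difference between the changes of the 2 genes was not tested.

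Chrnb1 encodes the β subunit, a further part of both receptor forms (chromosome 11, 69784036 to 69795943, minus strand). It had 12.6 and 17.5 CPM in the libraries of 3 months, 14.2 and 17.8 CPM in those of 12 months, 21.1 and 27.4 CPM in those of 24 months, and 20.2 and 24.9 CPM in those of 30 months. The libraries of 24 and 30 months overlapped each other and lay above all of 3 and 12 months. The log2 fold change was 0.58 (SE 0.21, edgeR adjusted p = 0.488) for 30 against 3 months and 0.68 (SE 0.21, adjusted p = 0.513) for 24 against 3 months, and neither passed. The set-adjusted values were 0.52 (SE 0.21, adjusted p = 0.276) and 0.61 (SE 0.21, adjusted p = 0.392), in the same order.

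**Figure D3:**
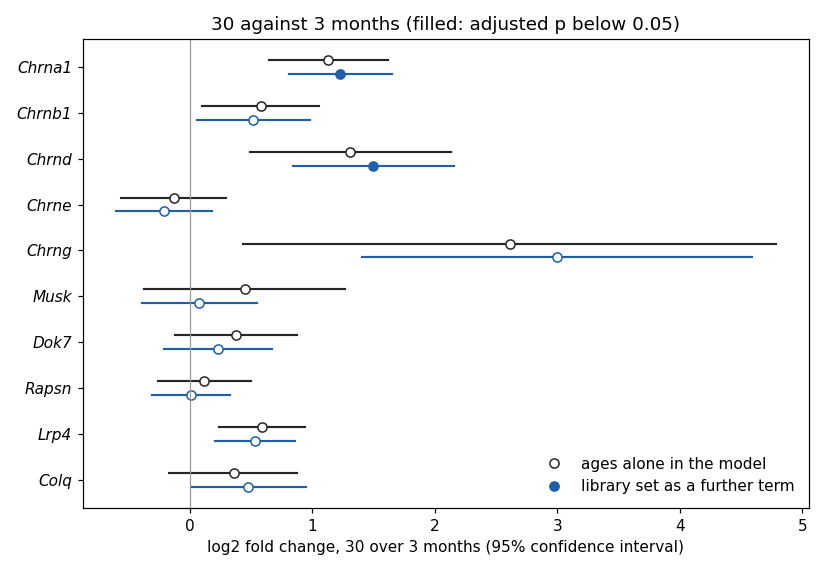
Log2 fold change of 30 over 3 months for each gene (points) with its 95% confidence interval (lines), black with the ages alone and blue with the library set as a further term, filled where the adjusted p was below 0.05. The 2 filled points are Chrna1 at 1.23 and Chrnd at 1.5, and the Chrne intervals straddle 0.

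The subunit genes were also set against Chrne within each library, per deposited gene length, which removes the scaling between libraries. These ratios were chosen with the members' values known and are given as a description, with no test. The shares depend on the length used, alike in every library. With the longest transcript, the log2 level relative to Chrna1 moved from 1.44 to 1.67 for Chrnb1 and from -2.35 to -2.2 for Chrnd. It moved from -5.71 to -5.13 for Chrng and from 1.16 to 1.22 for Chrne. As a share of Chrne, Chrna1 was 32.2% and 31.4% in the libraries of 3 months, 46.9% and 39.5% in those of 12 months, 44.7% and 35.2% in those of 24 months, and 61.2% and 91.1% in those of 30 months. The libraries of 30 months were above all others. Chrnb1 was 93.0% and 95.5% of Chrne in the libraries of 3 months, 110% and 117% in those of 12 months, 129% and 138% in those of 24 months, and 140% and 169% in those of 30 months, so no 2 ages overlapped. Chrnd was 7.83% and 3.81% of Chrne in the libraries of 3 months, 10.2% and 7.72% in those of 12 months, 10.5% and 7.33% in those of 24 months, and 9.83% and 19.9% in those of 30 months, which overlapped the 12 and 24 month ones. Chrng, the fetal counterpart of Chrne, was 0.469% to 1.20% of it in 7 libraries and 5.98% in replicate 2 of 30 months. The ratio in that library was the highest, and Chrne still exceeded Chrng per length there.

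**Figure D4:**
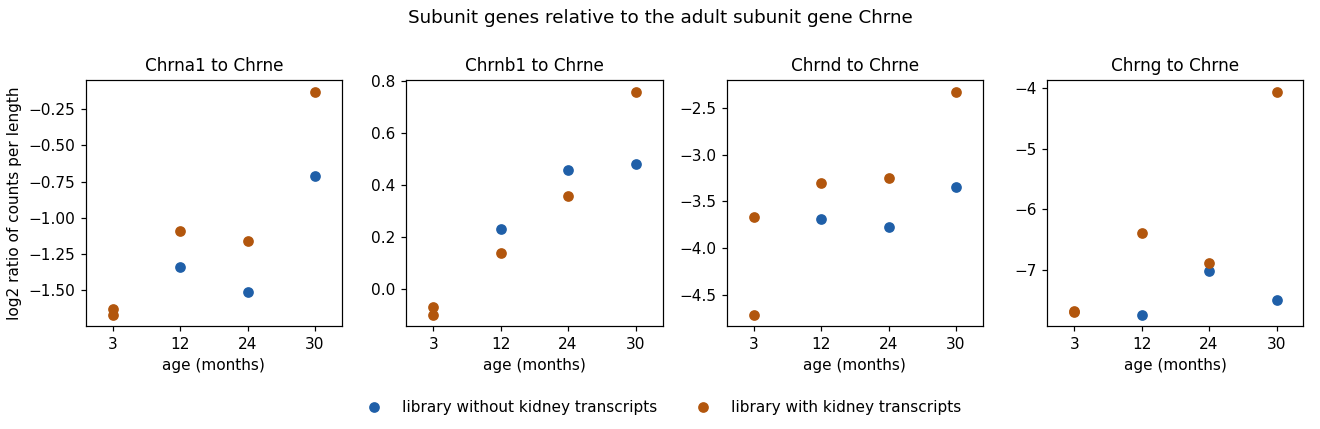
Log2 ratio of counts per length of Chrna1, Chrnb1, Chrnd and Chrng to Chrne in each library (vertical axes, each with its own range) against age in months, blue for libraries without and orange for libraries with kidney transcripts. The Chrnb1 panel reaches 140% and 169% of Chrne at 30 months, against 93.0% and 95.5% at 3 months, with no overlap of ages, and the Chrng panel has 1 point far above the rest at 5.98%.

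Musk encodes the receptor kinase that agrin activates through LRP4 (chromosome 4, 58285960 to 58374303, plus strand). It had 43.6 and 58.9 CPM in the libraries of 3 months, 48.7 and 106 CPM in those of 12 months, 58.0 and 75.6 CPM in those of 24 months, and 83.2 and 56.7 CPM in those of 30 months. Within each age the 2 libraries were apart, and the ages overlapped. In log2 CPM the libraries of 3 months, both with kidney transcripts, stood at 5.45 and 5.88. Those of 24 months, 1 from each set, stood at 5.86 and 6.24. The log2 fold change of 30 against 3 months was 0.45 (SE 0.36, edgeR adjusted p = 0.813) and 0.08 (SE 0.21, adjusted p = 0.912) in the set-adjusted fit. By set, the 3 libraries without kidney transcripts had 75.6 to 106 CPM with a mean of 88.4, and the 5 with them had 43.6 to 58.9 CPM with a mean of 53.2. The set term of the edgeR fit was 0.69 for libraries without over libraries with kidney transcripts (SE 0.16, adjusted p = 0.0362), and Musk was the only gene of the 10 called for it, where 5.74% of all genes were called. A lowest library without above the highest library with kidney transcripts was seen in 8.27% of all genes. The term was 0.46 without replicate 2 of 12 months (adjusted p = 0.159) and 0.47 without replicate 1 of 12 months (0.167), and it was 0.76 without either library of 30 months (0.0784 without replicate 1, 0.0763 without replicate 2). The clock genes Dbp and Arntl, named after their values were seen, followed the same sets, with Dbp at 65.3 to 81.1 CPM in libraries without and 8.32 to 30.8 CPM in libraries with kidney transcripts, and Arntl at 9.36 to 12.5 CPM without and 28.0 to 49.5 CPM with them. Their part and that of the kidney transcripts in the Musk difference was not tested.

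**Figure D5:**
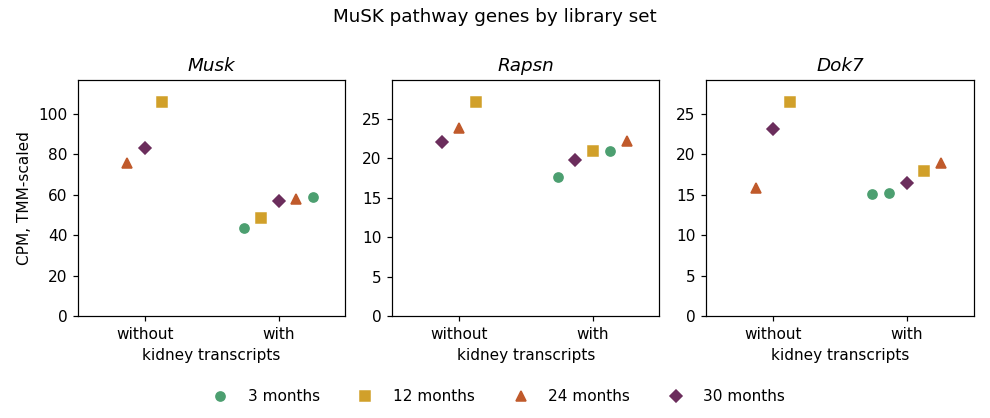
CPM scaled by TMM of Musk, Rapsn and Dok7 (vertical axes from 0) in the libraries without (left) and with (right) kidney transcripts, with symbols by age. Musk separates the sets, with a lowest value of 75.6 CPM without and a highest of 58.9 CPM with kidney transcripts. Rapsn overlaps narrowly, with the same 2 values at 22.1 and 22.2 CPM, and Dok7 overlaps more widely, at 15.8 and 18.9 CPM.

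Rapsn encodes rapsyn, the scaffold that anchors receptors (chromosome 2, 91035620 to 91045729, plus strand). It had 17.7 and 20.9 CPM in the libraries of 3 months, 20.9 and 27.2 CPM in those of 12 months, 22.2 and 23.9 CPM in those of 24 months, and 22.1 and 19.8 CPM in those of 30 months. No difference between 30 and 3 months was detected, with a log2 fold change of 0.12 and a 95% interval of -0.26 to 0.50 (SE 0.17, edgeR adjusted p = 0.905). Dok7 encodes the adaptor that binds and activates MuSK from inside the fibre (chromosome 5, 35056766 to 35087839, plus strand). It had 15.2 and 15.1 CPM in the libraries of 3 months, 17.9 and 26.5 CPM in those of 12 months, 18.9 and 15.8 CPM in those of 24 months, and 23.1 and 16.4 CPM in those of 30 months. In CPM every later library was above both of 3 months and the later ages overlapped one another, while in TPM replicate 1 of 3 months, at 9.80, was above libraries of 12 and 30 months at 8.10 and 8.70. The log2 fold change of Dok7 was 0.38 (SE 0.22, edgeR adjusted p = 0.707) for 30 against 3 months and 0.55 (SE 0.22, adjusted p = 0.898) for 12 against 3 months. For 30 against 3 months the set-adjusted fit gave 0.23 (SE 0.2, adjusted p = 0.668) for Dok7 and 0.01 (SE 0.15, adjusted p = 0.987) for Rapsn.

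Lrp4 encodes the agrin receptor (chromosome 2, 91457511 to 91513779, plus strand). It had 22.5 and 25.7 CPM in the libraries of 3 months, 24.7 and 31.7 CPM in those of 12 months, 34.7 and 33.1 CPM in those of 24 months, and 36.9 and 35.7 CPM in those of 30 months. The 2 libraries of 24 and of 30 months were close to each other and above all of 3 and 12 months. The mean was 36.3 ± 0.813 CPM at 30 months against 24.1 ± 2.24 CPM at 3 months (SD, n = 2 each), a log2 fold change of 0.59 (SE 0.16, 95% interval 0.24 to 0.94, edgeR adjusted p = 0.273). The set-adjusted log2 fold change was 0.53 (SE 0.15, edgeR adjusted p = 0.1). Lrp4 is also expressed in kidney. The 9 kidney genes summed to 0.703 and 3.70 CPM at 30 months against 51.0 and 16.6 CPM at 3 months, and their part in the Lrp4 values was not tested.

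Colq encodes the collagen tail that fixes acetylcholinesterase in the synaptic cleft (chromosome 14, 31523082 to 31591343, minus strand). It had 3.09 and 4.04 CPM in the libraries of 3 months, 4.09 and 3.61 CPM in those of 12 months, 5.54 and 3.84 CPM in those of 24 months, and 4.53 and 4.62 CPM in those of 30 months. The libraries of 30 months were above those of 3 months, with a log2 fold change of 0.36 that did not pass (SE 0.23, edgeR adjusted p = 0.75). The set-adjusted value of 0.48 did not pass either (SE 0.22, adjusted p = 0.331). Of its exon bases, 5.23% are shared with the neighbouring gene Gm49387 on the same strand, so the assignment of reads there is uncertain. Rapsn shares 0.222% of its exon bases with Gm13778 on the other strand, and no source used here gives the strand setting.

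The other comparisons of ages share libraries with that of 30 against 3 months, so their values are not independent of it. For 24 against 3 months all 10 genes were higher in the fit, at a median log2 fold change of 0.44, edgeR called 0 where 0.102% of all genes were called, and 4 had an unadjusted p below 0.05 (7.56% of all genes). For 12 against 3 months 9 were positive with a median of 0.28, 0 were called where 0.0409% of all genes were, and only Dok7 had an unadjusted p below 0.05 (5.5% of all genes). For 30 against 12 months 7 were positive with a median of 0.31, 0 were called where 0.00511% of all genes were, and 5 had an unadjusted p below 0.05 (5.21% of all genes). In these 3 comparisons 0 of the 10 were also called by DESeq2, by limma-voom and in the set-adjusted fit, which called 0.363%, 0.148% and 0.281% of all genes. The largest log2 fold changes of 30 over 12 months were those of Chrng at 2.10 (SE 0.90), Chrna1 at 0.89 (SE 0.21) and Chrnd at 0.82 (SE 0.35). Musk, Dok7 and Rapsn were the 3 with negative values, of -0.15, -0.17 and -0.20. Libraries did not overlap and were higher at 24 than at 3 months in 7 of the 10 genes (20% of all genes), at 12 than at 3 months in 4 (19.3%) and at 30 than at 12 months in 5 (16.1%).

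Tests over all 4 ages used the same libraries in another way. A test for any difference across the ages called 0 of the 10 with edgeR, where 0.0613% of all genes were called, with 4 below an unadjusted p of 0.05 (5.66% of all genes). In the set-adjusted fit it called Chrna1 (adjusted p = 0.03), where 1.04% of all genes were called, and this call too ended when replicate 1 of 3 months or replicate 2 of 30 months was left out. DESeq2 also called Chrna1, among 231 of all genes, and limma-voom called 0 of the 10. A slope on age in months called 0 with the ages alone, where 0.133% of all genes were called, with 5 below an unadjusted p of 0.05 (9.83% of all genes). In the set-adjusted fit the slope called 4, where 1.51% of all genes were called. These were Chrna1 with a log2 slope of 0.0419 per month (SE 0.00693, adjusted p = 0.0132), Chrnd with 0.0504 (SE 0.00992, adjusted p = 0.0285), Chrng with 0.104 (SE 0.023, adjusted p = 0.0454) and Lrp4 with 0.0204 (SE 0.00463), whose adjusted p of 0.049998 lay at the threshold. The slopes of all 4 missed the threshold without replicate 1 of 3 months, and likewise when replicate 2 of 30 months was left out, and only that of Chrna1 passed without replicate 2 of 3 months. Chrng also missed it without either library of 12 months, Lrp4 without replicate 1 of any later age, and DESeq2 called the slopes of Chrna1, Chrnd and Lrp4 among 298 of the 19571 genes.

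The library with the highest Chrna1, Chrnd and Chrng, replicate 2 of 30 months, stood apart in other lists too. Its sum over 10 skeletal muscle fibre genes (0 passed in either fit) was 252000 CPM, against 272000 to 419000 CPM in the other 7. Its sum over 9 slow fibre genes was 2950 CPM, against 541 to 1720 CPM in the other 7 libraries, and 6 of the 9 passed for 30 against 3 months in the set-adjusted fit, or 1, Myh7, without it. Its sum over 4 developmental genes, embryonic and neonatal myosins among them, was 129 CPM, against 37.9 to 67.6 CPM, and 0 of the 4 passed for 30 against 3 months, or Myl4 and Ncam1 in the set-adjusted fit. Myh3, the embryonic myosin heavy chain, was at 56.7 CPM there, against 9.23 to 19.8 CPM. A sum over 6 heart genes was 12.6 CPM there, against 3.45 to 8.18 CPM, and Ryr2 alone of these passed for 30 against 3 months, or Ryr2 and Tnnt2 in the set-adjusted fit. A sum over 12 Schwann cell genes was 179 CPM there, against 63.2 to 139 CPM. By age, the Schwann sum was 99.9 and 179 CPM at 30 months against 139 and 84.4 CPM at 3 months, with 11 of 12 genes at positive log2 fold changes and 0 called, or Ngfr alone in the set-adjusted fit. Markers of satellite cells, the stem cells of muscle, (0 of 8 passed in either fit) summed to 41.2 and 36.5 CPM at 30 months against 33.3 and 38.5 CPM at 3 months. Of 12 motor nerve markers 4 had enough counts to test and 0 passed in either fit, the sum over the list was 3.34 to 5.43 CPM, and the defining genes Chat and Slc18a3 had 0 counts in all libraries. With so few counts, this list cannot show whether the nerve content differed. The part of these differences in the subunit values was not tested.

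Other genes of the pathway were taken as lists. Of 36 further genes of junction signalling, scaffold and matrix, 35 were tested, 21 were higher at 30 than at 3 months (51.4% of all genes were), the median log2 fold change was 0.06, and edgeR called 0, with 4 higher and Cav3 lower below an unadjusted p of 0.05 (5 in all, where 8.52% of all genes were). In the set-adjusted fit, which called 2.13% of all genes, 2 rose, Pak1, a kinase that acts downstream of MuSK (log2 fold change 0.82, adjusted p = 0.014), and Nes, an intermediate filament gene active at the junction (0.91, adjusted p = 0.014). Pak1 had 42.9 and 38.5 CPM at 30 months against 22.2 and 20.7 CPM at 3 months, and Nes had 49.2 and 70.3 CPM at 30 months against 35.2 and 32.4 CPM at 3 months. Both calls were lost without either library of 3 months (adjusted p = 0.066 and 0.109 for Pak1, 0.0595 and 0.103 for Nes) and when replicate 2 of 30 months was left out (0.263 for Pak1, 0.457 for Nes). Agrn, the gene of agrin, had 18.9 and 23.6 CPM at 30 months against 14.6 and 14.0 CPM at 3 months, a log2 fold change of 0.57 that did not pass (SE 0.22, adjusted p = 0.518). Cav3, which encodes the membrane protein caveolin-3, had 32.6 and 31.7 CPM at 30 months against 42.5 and 43.8 CPM at 3 months and did not pass (log2 fold change -0.42, SE 0.13, adjusted p = 0.348).

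Of 27 genes of the factors and kinases that govern transcription of the receptor genes, all were tested, 22 were higher at 30 months (51.4% of all genes were), the median was 0.26, and edgeR called 0, with 4 below an unadjusted p of 0.05 (8.52% of all genes). In the set-adjusted fit 2 rose, Runx1 and Camk2b, again beside 2.13% of all genes. Runx1, a factor induced in fibres that lose their nerve, had 13.9 and 16.3 CPM at 30 months against 5.66 and 6.42 CPM at 3 months (log2 fold change 1.52, adjusted p = 0.00101 in that fit, and 0.0895 with the ages alone). Camk2b, the gene of a calcium-dependent kinase, had 210 and 122 CPM at 30 months against 60.6 and 84.2 CPM at 3 months (0.79, adjusted p = 0.0474, against 1.19 with the ages alone, adjusted p = 0.334). The Runx1 call held without each library in turn (adjusted p of 0.00044 to 0.0123). That of Camk2b was lost without replicate 1 of 3 months (0.258), either library of 12 months (0.0753 and 0.0619) or either library of 30 months (0.0934 and 0.281). With the ages alone, DESeq2 called Pak1, Nes, Runx1, Camk2b and Gadd45a (adjusted p of 0.000245 to 0.0218). Gadd45a, a growth arrest gene, had 31.5 and 41.9 CPM at 30 months against 14.9 and 14.1 CPM at 3 months, and among edgeR fits of all 8 libraries passed for the slope with the library set (adjusted p = 0.0397) and with no low count filter. Hdac4, a deacetylase that responds to denervation, had 110 and 77.5 CPM at 30 months against 60.4 and 68.6 CPM at 3 months and did not pass (log2 fold change 0.54, SE 0.20, adjusted p = 0.499).

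Of 5 glycosylation enzyme genes in which mutations cause congenital myasthenia in humans, 0 were called in either fit, 0 had an unadjusted p below 0.05 with the ages alone, and their median was -0.06. Gfpt1 had 41.8 and 35.8 CPM at 30 months against 41.3 and 43.8 CPM at 3 months. Of 11 nicotinic subunit genes of neurons and other cells, 5 had enough counts to test, 0 were called in either fit, and 0 had an unadjusted p below 0.05 with the ages alone. Chrna6, Chrnb3 and Chrnb4 had 0 counts in all libraries. Chrna10 was the most abundant at 4.29 to 7.84 CPM, and it had 5.10 and 6.90 CPM at 30 months against 6.37 and 7.84 CPM at 3 months.

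Across the 8 libraries the members did not vary as 1 group. As a description over libraries that share ages and sets, log2 CPM of Chrna1 and Chrnd correlated at a Pearson r of 0.83 (Spearman rho 0.90), Chrna1 and Lrp4 at 0.80 (rho 0.90), and Chrna1 and Chrne at 0.04 (rho 0.05). Without the 2 libraries farthest from the median of Chrna1, its r was 0.63 with Chrnd, 0.83 with Lrp4 and -0.06 with Chrne. Musk and Rapsn correlated at 0.90 (rho 0.79), and Musk and Dok7 at 0.77 (rho 0.52), where r was -0.05 without the 2 libraries farthest from the median of Musk. Among 9595 other named genes of sufficient level, Sln (r = 0.955) and Vwf (0.953) were among those whose pattern was most like that of Chrna1. Sln, which encodes the calcium pump regulator sarcolipin, ranged from 1.17 to 51.1 CPM. Without the 2 farthest libraries r was 0.943 for Sln and 0.74 for Vwf. The most like Chrne were Fbxl20 (0.938), Apex2 (0.925) and Neu2 (0.92), and the most like Musk were Sympk (0.988), Zc3h18 (0.985) and Cacnb1 (0.979), the gene of the β subunit of the muscle calcium channel. The highest values among so many genes over 8 libraries are large by selection.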

How the data were processed

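Trizol-extracted RNA was turned into libraries with a NEBNext kit and sequenced from both ends, per the labels' protocols. The authors deposited raw counts for each Ensembl gene, without normalization, beside its start, end and length. The submitters' processing notes name STAR 2.5.2b, Trimmomatic 0.36, Subread 1.5.2 and featureCounts and the builds GRCm38 and mm10, and give them no roles. No source used here gives the annotation release, the strand setting or the handling of multi-mapping reads. Symbols and coordinates came from GENCODE M21 (GRCm38) and a table that matched 48970 of 49315 IDs. No row named no gene.

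Counts were tested in R 4.3.3 with edgeR 4.0.16: filterByExpr on age, TMM scaling, and a robust quasi-likelihood fit of 4 ages over 8 libraries (4 residual degrees of freedom, 3 with the library set), with Benjamini-Hochberg adjustment over all genes and calls below 0.05. A standard error was the fitted log2 difference over the root of its F value, and log2 CPM used a prior count of 2. Alternatives were RLE factors, library totals, no filter, 1 CPM in 2 libraries, DESeq2 1.42.0, limma-voom (limma 3.58.1), only the ages compared, a replicate block, the library set as a term, and each library left out. Added after seeing the data were fits of 12, 24 and 30 months alone, and the set term with each library left out. A library's set was given by whether 9 kidney genes summed to more than 1 CPM.

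The members, lists and tests were chosen with earlier results of these data known. Named were all members, up to 4 genes with the lowest p for 30 against 3 months of each other list, any called gene, sums and up to 3 abundant genes for cell types, and for Chrna1, Chrne and Musk the 3 genes of most similar log2 CPM. A gene that this rule names is not reported here. The 2 libraries of each age differed by more than sampling noise (chi-square per degree of freedom 49.9 to 123), which adds to the counting error that totals of 42404254 to 59245029 counts allow.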

Additional observations from a re-analysis of the deposited data

How the results depend on the processing

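Of the 10 genes, 0 were called with the ages alone, and no alternative called any for 24 or 12 against 3 months. For 30 against 3 months 2 were called with no low count filter, 1 with DESeq2 and 2 with the library set as a term. For 30 against 12 months 1 was called with no filter. Across the 4 ages 3 were called with no filter, 1 with DESeq2 and 1 with the library set. For the slope 1 was called with no filter, 3 with DESeq2 and 4 with the library set. Fits without 1 library leave a lone library at an age, so their calls are not counted here. With 12, 24 and 30 months alone edgeR called 0 of the 10 and 0 of all genes, with 2 and 4 of the 10 below an unadjusted p of 0.05 across ages and for the slope. The replicate numbers did not pair the libraries (correlations of -0.36 to 0.26 between ages), and with a replicate block 0 of the 10 and 13 of all genes, against 29, were called for 30 against 3 months. Over all genes, no filter gave 469 across the ages, 107 for the slope and 139 for 30 against 12 months of 33615 tested, and DESeq2 gave 231 across the ages and 298 for the slope of 19571. The library set as a term gave 203 across the ages and 295 for the slope. For 30 against 3 months the number of all genes called was 213 with DESeq2, 378 with no filter, 416 with the library set and 22 with limma-voom.

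The log2 fold change of 30 against 3 months changed sign only in fits without 1 library, and the cause was not tested. Without 1 library it ranged from -0.33 to 0.11 for Chrne with the ages alone. With the set as a term and 1 library left out it ranged from -0.41 to 0.03 for Chrne. Single set fits without 1 library gave Musk -0.12 and -0.06, Rapsn -0.11, -0.04, -0.02 and -0.01, Gfpt1 0.02, and Chrna10 0.01, 0.01, 0.07 and 0.15. Where a library was left out, the lone one of its age was assumed to vary as the rest do. With the longest transcript length, the log2 level relative to Chrna1 was 1.26 for Dok7, 0.47 for Lrp4 and -0.94 for Colq. Depth limits Chrng most, with 5 to 13 counts in 7 libraries.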
